A study of Homo sapiens with 13 samples.

Results

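The 33 genes described here are interferon-stimulated genes, taken by symbol from a fixed list, and all 33 were matched by gene name among the 58581 genes of the RNA-seq count table. The list holds 4 transcription factors (IRF1, IRF7, IRF9 and STAT2), the cytosolic RNA sensors DDX58 and IFIH1, 9 RNA-binding or RNA-degrading effectors, 4 membrane effectors, the ISG15 system, the GTPases MX1 and MX2, 3 genes of antigen processing and 6 further interferon-induced genes. No measured value was a criterion of the list, but it was chosen with earlier results of these data known.

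The cells were HEL, a human erythroleukemia line known to carry an activating change in the kinase JAK2, stably given a doxycycline-controlled SRSF2 construct. SRSF2 is a serine- and arginine-rich splicing factor, and the construct encoded either the wild type (WT) or the P95H form, a substitution that recurs in myelodysplastic syndromes and related leukemias. RNA-seq after rRNA depletion covered 2 WT and 2 P95H libraries after 48 hours of doxycycline at 1 µg/ml, and 1 library of the P95H line labelled uninduced. HITS-CLIP, which recovers RNA crosslinked to a tagged protein (here through Flag), covered 4 WT and 4 P95H samples after 36 hours of the same dose. All groups are this 1 cell line with a stable construct, no untransduced or uninduced WT library was analysed here, and the sources used here do not say whether the lines are clonal. Replicates are called biological, with nothing more on how cultures were kept apart. The p-values therefore rest on these libraries only, with the spread shared in part across genes.

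Interferons are secreted proteins that cells release on sensing foreign nucleic acid. Type I interferon binds a receptor whose kinases, TYK2 and JAK1, phosphorylate STAT2. STAT2 and IRF9 act in a complex that binds the interferon-stimulated response element (ISRE) in promoters, while the gamma-activated site (GAS) is the element known for the response to interferon-gamma. The induced proteins degrade RNA, block viral entry, cleave and load peptides for antigen presentation, and feed back on the pathway. Many of these genes keep a low level without added interferon, and no interferon was added here according to the labels.

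Promoter sequence was searched for letters of these elements, and 26 of the 33 members had an entry in the RefSeq promoter table. Its entries (GRCh38.p14) run from 250 bases before to 50 bases after a transcript start, with 34 starts in all for the members. DDX58 was matched under its newer symbol, RIGI. The letters GAAANNGAAA, or TTTCNNTTTC on the other strand, were searched for the ISRE, and TTCNNNGAA, which reads the same on both strands, for the GAS. The ISRE letters stood in 18 of the 26 members (69.2%), against 4.38% of the 27305 genes of the table, and the GAS letters in 10 of the 26 (38.5%), against 9.38%. Both stood in 6 members, the ISRE alone in 12, the GAS alone in 4 (IRF1, IRF9, OAS1 and IFI35) and neither in 4 (DDX58, STAT2, PSMB9 and XAF1). In IFI27, MX1 and IFITM1 every GAS match shares bases with an ISRE match. The counts of the motifs are therefore not independent, and in these members the GAS letters are not a separate stretch. A letter match describes the sequence and is not evidence of a bound site. A missing match is not evidence of a missing element, because sites that depart from these letters or lie outside the window were not searched.

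The stretches of 8 members are printed because the levels of these members come up repeatedly in the results. Each holds the 160 bases before a RefSeq transcript start, 5′ to 3′ on the gene's strand, and capitals mark the matches of either motif. For IRF1 (chr5:132490774-132490933, minus strand) and IRF9 (chr14:24161105-24161264, plus strand) the capitals are GAS letters.
IRF1: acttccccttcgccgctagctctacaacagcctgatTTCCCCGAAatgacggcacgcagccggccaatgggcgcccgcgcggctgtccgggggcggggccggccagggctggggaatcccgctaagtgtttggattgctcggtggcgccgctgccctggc
IRF9: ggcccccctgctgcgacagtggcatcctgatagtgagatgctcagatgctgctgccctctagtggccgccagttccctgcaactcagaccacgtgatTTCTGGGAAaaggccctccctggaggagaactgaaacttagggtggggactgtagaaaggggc
For the next 5 the capitals are ISRE letters: TAP1 (chr6:32853705-32853864, minus strand), IFIT1 (chr10:89392463-89392622), IFIT3 (chr10:89327837-89327996), IFI44 (chr1:78649629-78649788) and OAS3 (chr12:112938314-112938473), the last 4 on the plus strand. In TAP1 2 matches overlap.
TAP1: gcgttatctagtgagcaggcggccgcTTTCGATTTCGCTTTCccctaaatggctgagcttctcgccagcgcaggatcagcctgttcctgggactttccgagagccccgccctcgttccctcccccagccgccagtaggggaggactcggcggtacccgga
IFIT1: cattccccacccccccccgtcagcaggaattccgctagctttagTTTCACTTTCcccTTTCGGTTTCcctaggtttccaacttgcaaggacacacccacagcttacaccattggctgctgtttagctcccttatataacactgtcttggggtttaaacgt
IFIT3: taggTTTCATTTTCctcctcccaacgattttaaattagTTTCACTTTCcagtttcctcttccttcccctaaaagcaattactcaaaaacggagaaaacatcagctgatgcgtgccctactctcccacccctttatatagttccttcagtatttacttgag
IFI44: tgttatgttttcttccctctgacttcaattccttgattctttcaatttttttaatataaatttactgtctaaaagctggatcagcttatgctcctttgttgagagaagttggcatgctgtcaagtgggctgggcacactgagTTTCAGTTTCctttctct
OAS3: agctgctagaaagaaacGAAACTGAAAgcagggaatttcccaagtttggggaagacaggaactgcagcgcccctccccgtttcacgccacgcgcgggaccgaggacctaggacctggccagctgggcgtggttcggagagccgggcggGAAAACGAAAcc
In IFITM1 (chr11:313880-314039, plus strand) the first capitals are ISRE letters, and the second run joins a GAS match to an ISRE match that overlaps it and ends beyond the transcript start.
IFITM1: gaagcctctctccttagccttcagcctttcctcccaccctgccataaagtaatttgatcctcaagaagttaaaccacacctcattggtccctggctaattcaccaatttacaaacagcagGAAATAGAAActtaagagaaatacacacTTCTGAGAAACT

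**Figure D1:**
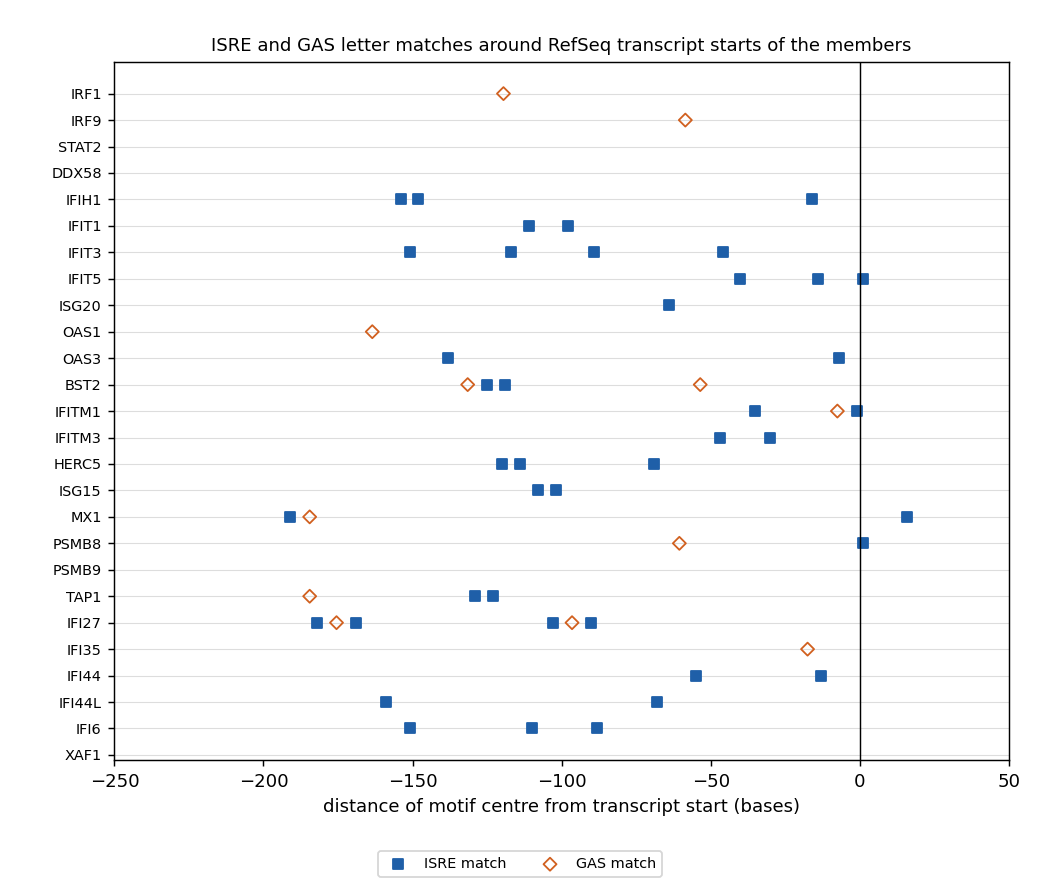
Positions of ISRE matches (squares) and GAS matches (diamonds) from 250 bases before to 50 bases after the RefSeq transcript starts of the 26 matched members, as the distance of the motif centre from the start in bases, with several starts of a gene on 1 line. IRF1 and IRF9 show a diamond only, IFIT1, IFI44 and OAS3 squares only, and 4 members show no match.

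Library totals ran from 37414093 to 45005605 counts. Levels are given as CPM, the count of a gene relative to its library's counts in genes that passed the filter on low counts. These totals were scaled by a normalization factor (TMM), and a count of 3 equals 0.0662 to 0.0800 CPM. SRSF2 itself, the gene of the construct, stood at 222 and 241 CPM in WT replicates 1 and 2, at 223 and 252 CPM in P95H, and at 285 CPM in the uninduced library, so it was not higher in the doxycycline libraries and gives no check of the label uninduced. The 4 replicated libraries separated by replicate number: mitochondrially encoded genes took 1.38% of counts in both replicate 1 libraries, 4.50% and 4.30% in the WT and P95H replicate 2 libraries, and 4.14% in the uninduced library. Erythroid markers summed to 1134 to 2026 CPM over 10 genes, of which TFRC alone held 771 to 1507 CPM. Megakaryocyte markers summed to 780 to 1179 CPM over 9 genes, where PF4 had at most 2 counts a library. Dendritic cell markers summed to 0.154 to 0.482 CPM over 5 genes and lymphocyte markers to 5.49 to 7.97 CPM over 8. Monocyte and granulocyte markers summed to 8.65 to 13.9 CPM over 8 genes, most of it LYZ. Fibroblast, epithelial and endothelial markers summed to 31.8 to 41.1 CPM over 8 genes, most of it KRT18. The erythroid sum was 1134 and 1182 CPM in the WT and P95H replicate 1 libraries, 2026 and 1712 CPM in replicate 2, and 1765 CPM in the uninduced library. TFRC alone held 771 and 852 CPM, 1507 and 1249 CPM, and 1335 CPM of it, in that order. By edgeR's quasi-likelihood test 9 of the 10 erythroid genes were higher in replicate 2, where 10.3% of all genes were. The other, GYPC, was lower, where 8.87% were. The part of this erythroid difference in the results on interferon-stimulated genes was not tested. Fewer cells expressing a gene and less RNA per cell cannot be told apart in bulk libraries.

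All 33 members had at least 1 count in at least 1 library, and 30 passed the filter on low counts. Together they held 506 and 557 CPM in WT, 492 and 497 CPM in P95H, and 442 CPM in the uninduced library. The 3 members below the filter were MX2, with 5 to 8 counts a library, OASL, with 1 to 5 counts, and XAF1, with 5 counts in WT replicate 1 and 0 elsewhere. A count of 0 in those XAF1 libraries allows up to 3 counts, for counting error only. Another 5 members averaged under 1 CPM: MX1, OAS1, OAS2, IFI27 and IFI44L. The remaining 25 members averaged 1 CPM or more. CPM are not corrected for gene length, so they order libraries within a gene and not genes within a library. In the files' annotation 20 members overlap another gene, 16 of them on the opposite strand, and the sources used here do not say whether counting used strand. Counting without strand could mix reads of opposite-strand pairs where their exons overlap. Such pairs include IFIT1, IFIT2 and IFIT3 with LIPA, and PSMB8 and TAP1 with PSMB9 and PSMB8-AS1. PSMB9 and PSMB8-AS1 share a strand, so strand would not separate them. IFITM1 lies within the span annotated for IFITM2 on the same strand, so their counts could have been split.

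**Figure D2:**
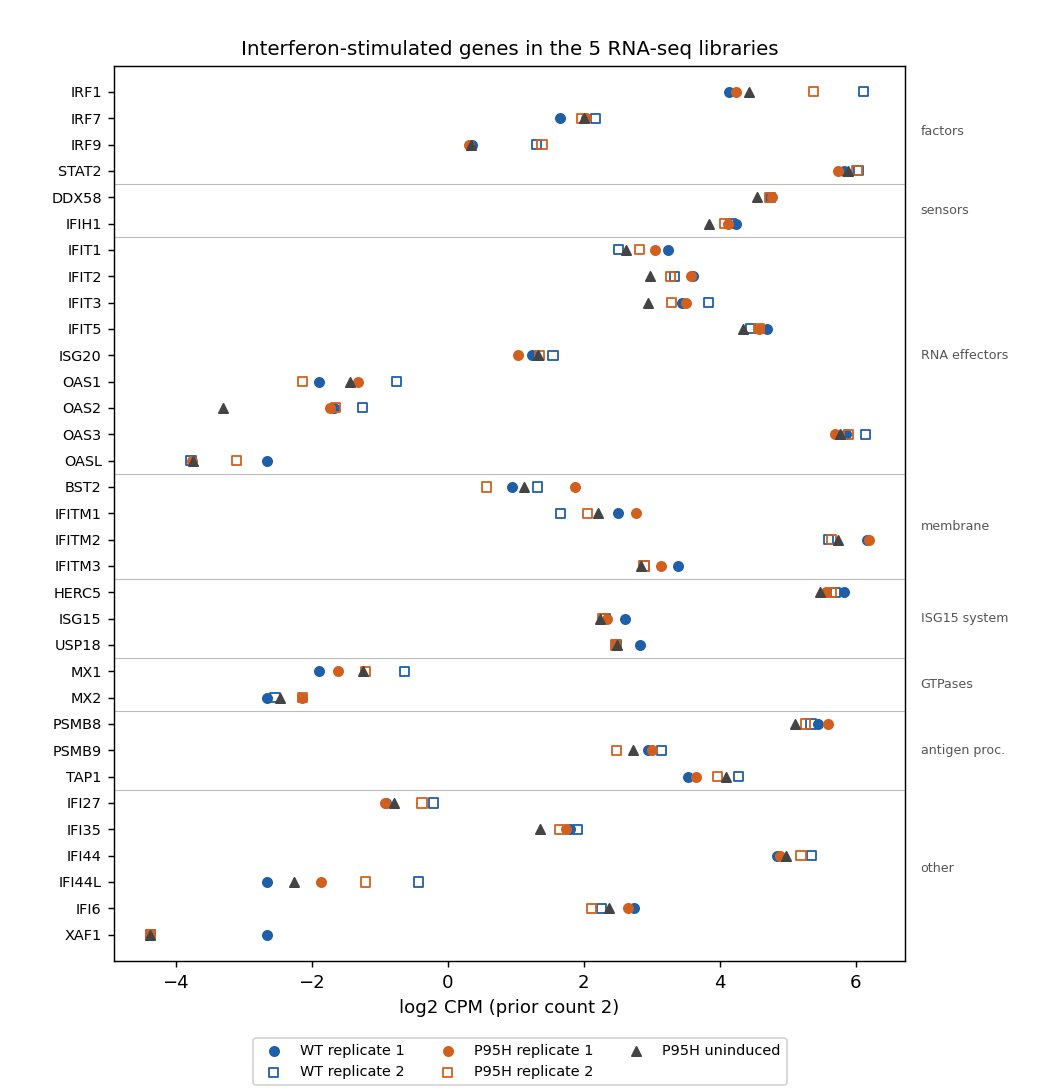
Log2 CPM (prior count 2) of each member in the 5 RNA-seq libraries, grouped by role: WT in blue, P95H in orange, replicate 1 as filled circles, replicate 2 as open squares, and the uninduced library as dark triangles. IRF1 and IRF9 have both replicate 2 libraries above the other 3, and IFITM2 has both replicate 1 libraries above the other 3.

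No interferon-stimulated gene passed the test between P95H and WT. By edgeR's quasi-likelihood test on 22007 genes, 0 genes (0.0%) passed a Benjamini-Hochberg adjusted p of 0.05, with 227 genes at an unadjusted p under 0.05, and DESeq2 also called 0 with 100 under 0.05. Of the 30 members tested, 0 were called and 0 had an unadjusted p under 0.05 in either tool. Their log2 differences, P95H minus WT, were negative for 21 and positive for 9, with a median of -0.11, against 0.0020 over all genes tested. Without WT replicate 2 the members' median was -0.043, and -0.16 without WT replicate 1. The shift was uneven between libraries of the same number: the median was -0.02 within replicate 1 (14 positive, 16 negative) and -0.15 within replicate 2 (5 positive, 25 negative), where the medians of all genes were -0.0057 and -0.00012. A lower value in P95H within both replicate numbers held for 13 members of 30, where 27.6% of all genes did so, and a higher value for 2, IFITM1 and IFITM2, where 26.6% did so. Both P95H libraries lay below both WT libraries for 4 members (HERC5, IFI35, IFIH1 and USP18), where 12.2% of all genes did so, and above for 0, where 12.1% did so. The direction of this shift had been seen in earlier results on these data, so it adds no independent support.

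Among the ISG15 system, all 3 members were lower in P95H without passing. HERC5, the ligase that joins ISG15 to newly made proteins, stood at 56.8 and 52.0 CPM in WT replicates 1 and 2, 47.2 and 49.8 CPM in P95H, and 44.2 CPM in the uninduced library. Its groups did not overlap, at 54.4 ± 3.38 CPM in WT and 48.5 ± 1.78 CPM in P95H (SD, n = 2), but the log2 difference of -0.16 (SE 0.11) had an edgeR adjusted p of 0.9999. USP18, which removes ISG15 and restrains the type I receptor, stood at 7.06 and 5.53 CPM in WT, 5.52 and 5.48 CPM in P95H, and 5.55 CPM uninduced. Here WT replicate 1 stood apart and the other 4 libraries lay together. The edgeR log2 difference was -0.18 (SE 0.22), and 0.00082 without WT replicate 1. ISG15, the ubiquitin-like modifier itself, ranged from 4.69 CPM in the uninduced library to 6.02 CPM in WT replicate 1.

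The RNA effectors gave 6 negative and 2 positive differences among 8 tested. OAS3, one of the synthetases that make 2′-5′ oligoadenylate to activate RNase L, stood at 58.2 and 70.5 CPM in WT, 52.1 and 59.6 CPM in P95H, and 54.3 CPM uninduced. P95H was below WT within each number, by -0.16 and -0.24 on the log2 scale, yet the groups overlapped. Its edgeR log2 difference was -0.19 (SE 0.14, edgeR adjusted p 0.9999), and -0.058 without WT replicate 2. ISG20, an exonuclease, stood at 2.32 and 2.88 CPM in WT, 2.00 and 2.5 CPM in P95H, and 2.45 CPM uninduced, a log2 difference of -0.19 (SE 0.28), and -0.039 without WT replicate 2. IFI35, a further interferon-induced gene whose protein binds NMI, stood at 3.42 and 3.72 CPM in WT, 3.29 and 3.09 CPM in P95H, and 2.51 CPM uninduced, a log2 difference of -0.15 (SE 0.23). Each of these differences was within about 1.5 standard errors of 0.

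Of the 30 members tested, only the membrane effectors IFITM1 and IFITM2, which restrict viral entry, were higher in P95H within both numbers. IFITM1 stood at 5.63 and 3.12 CPM in WT, 6.79 and 4.10 CPM in P95H, and 4.56 CPM uninduced, a log2 difference of 0.32 (SE 0.37). IFITM2 stood at 71.4 and 48.6 CPM in WT, 73.2 and 49.9 CPM in P95H, and 53.3 CPM uninduced, a log2 difference of 0.05 (SE 0.24). For both genes the 2 numbers differed more than the 2 genotypes did. Both differences turned negative without WT replicate 2, at -0.05 for IFITM1 and -0.21 for IFITM2, or without P95H replicate 1, at -0.09 and -0.26.

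Several members differed between the replicate 1 and replicate 2 libraries of both genotypes. This comparison was added after the values had been seen, and the labels do not say what the numbers stand for. In edgeR with a genotype term, 7 of 30 members were higher in the replicate 2 libraries, where 10.3% of 22007 genes were, and 4 were lower, where 8.87% were. The higher ones were IRF1, IRF9, STAT2, TAP1, OAS3, IFI44 and IFI44L, and the lower ones IFITM1, IFITM2, IFIT1 and IFI6. With genotype and number both fitted to 4 libraries, little spread is left within a gene. The SE and p-values by number therefore rest largely on the spread over all genes. The median over the 30 members was -0.0036 and over all genes -0.0097, and 15 members were positive and 15 negative. The mitochondrial share and the erythroid marker sum given above moved with the same split, and their part in these differences was not tested. DESeq2 called 5 of these 11 (IRF1, TAP1, IFI44, IFITM1 and IFITM2), where it called 1455 of 22007 genes. In edgeR without a genotype term 6 of 30 members were called, where 2867 of 22007 genes were. Fewer members, and fewer genes, were called with WT replicate 2 also left out.

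Of the 4 transcription factors 3 were called. IRF1, an early factor that acts on promoters of antigen-processing and antiviral genes, stood at 17.6 CPM in WT replicate 1 and 18.9 CPM in P95H replicate 1, but at 69.1 and 41.8 CPM in WT and P95H replicate 2, and at 21.4 CPM in the uninduced library. Both replicate 2 libraries lay above the other 3, and the means of 43.3 ± 36.4 CPM in WT and 30.3 ± 16.2 CPM in P95H (SD, n = 2) differed by less than their spread. The replicate 2 libraries were 3.04-fold higher on average, with a log2 difference of 1.57 (SE 0.11, edgeR adjusted p 2.26e-13). The rise was larger in WT than in P95H, so this SE does not measure the spread between the libraries for this gene. P95H minus WT was 0.10 within replicate 1 and -0.73 within replicate 2, and the pooled edgeR difference of -0.50 (SE 0.64) became 0.79 without WT replicate 2. Whether the replicate difference itself differs between genotypes was not tested.

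IRF9, the DNA-binding partner of STAT2, also lay higher in both replicate 2 libraries than in the other 3, at a low level. It stood at 1.24 and 2.43 CPM in WT replicates 1 and 2, 1.19 and 2.57 CPM in P95H, and 1.23 CPM uninduced. The log2 difference by number was 1.04 (SE 0.25, edgeR adjusted p 0.00215), lost in DESeq2 (adjusted p 0.113). STAT2 stood at 56.8 and 65.9 CPM in WT, 53.5 and 64.9 CPM in P95H, and 59.4 CPM uninduced, and its difference by number was small, at 0.24 (SE 0.08, edgeR adjusted p 0.0281; DESeq2 0.168). IRF7, the factor that amplifies interferon production, stood at 3.09 and 4.46 CPM in WT, 4.03 and 3.85 CPM in P95H, and 3.97 CPM uninduced, and was not called by number.

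TAP1, a subunit of the peptide transporter of antigen presentation, stood at 11.5 and 19.4 CPM in WT, 12.5 and 15.6 CPM in P95H, and 17.0 CPM uninduced. Its log2 difference by number was 0.54 (SE 0.12, edgeR adjusted p 0.00101), and unlike IRF1 and IRF9 the uninduced library lay among the replicate 2 values. PSMB8, an immunoproteasome subunit, stood at 43.7 and 40.6 CPM in WT, 48.4 and 38.3 CPM in P95H, and 34.3 CPM uninduced, with a difference by number of -0.22 (SE 0.09, edgeR adjusted p 0.0669). The third antigen-processing member, PSMB9, ranged from 5.54 to 8.80 CPM over the 5 libraries.

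IFI44, a cytoplasmic interferon-induced protein, stood at 28.8 and 40.7 CPM in WT, 29.7 and 36.6 CPM in P95H, and 31.6 CPM uninduced. Its log2 difference by number was 0.40 (SE 0.09, edgeR adjusted p 0.00136). IFI44L, its neighbour and paralog, had 5 and 28 counts in WT, 9 and 17 counts in P95H, and 6 counts uninduced, a log2 difference of 1.66 (SE 0.53, edgeR adjusted p 0.0235) on few reads. OAS3 differed by 0.24 (SE 0.08, edgeR adjusted p 0.0347), with its values given above.

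Of the members lower in replicate 2, IFITM2 differed by -0.55 (SE 0.08, edgeR adjusted p 2.67e-06) and IFITM1 by -0.79 (SE 0.17, edgeR adjusted p 0.000979). IFITM3, the third gene of this cluster, stood at 10.4 and 7.39 CPM in WT, 8.74 and 7.35 CPM in P95H, and 7.09 CPM uninduced, at an edgeR adjusted p of 0.0512. IFIT1, which binds viral RNA that lacks the host cap methylation, stood at 9.36 and 5.65 CPM in WT, 8.26 and 7.03 CPM in P95H, and 6.11 CPM uninduced. It differed by -0.48 (SE 0.15, edgeR adjusted p 0.0201). IFI6, a membrane protein that counters flavivirus replication, stood at 6.62 and 4.76 CPM in WT, 6.26 and 4.28 CPM in P95H, and 5.15 CPM uninduced, and differed by -0.51 (SE 0.16, edgeR adjusted p 0.024). For the last 2, DESeq2 gave adjusted p of 0.232 and 0.25.

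Read against the promoter letters, the called members held different motifs, and so did the whole list. Of the 26 members with a promoter entry, 69.2% held ISRE letters and 38.5% GAS letters. Whether the called members differ from these shares was not tested. Among the 7 higher in replicate 2, IRF1 and IRF9 hold GAS letters alone, TAP1 holds both motifs (its GAS letters at its other start), IFI44, IFI44L and OAS3 hold ISRE letters alone, and STAT2 holds neither. Among the 4 lower, IFIT1 and IFI6 hold ISRE letters alone and IFITM1 both, while IFITM2 was not in the promoter table.

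**Figure D3:**
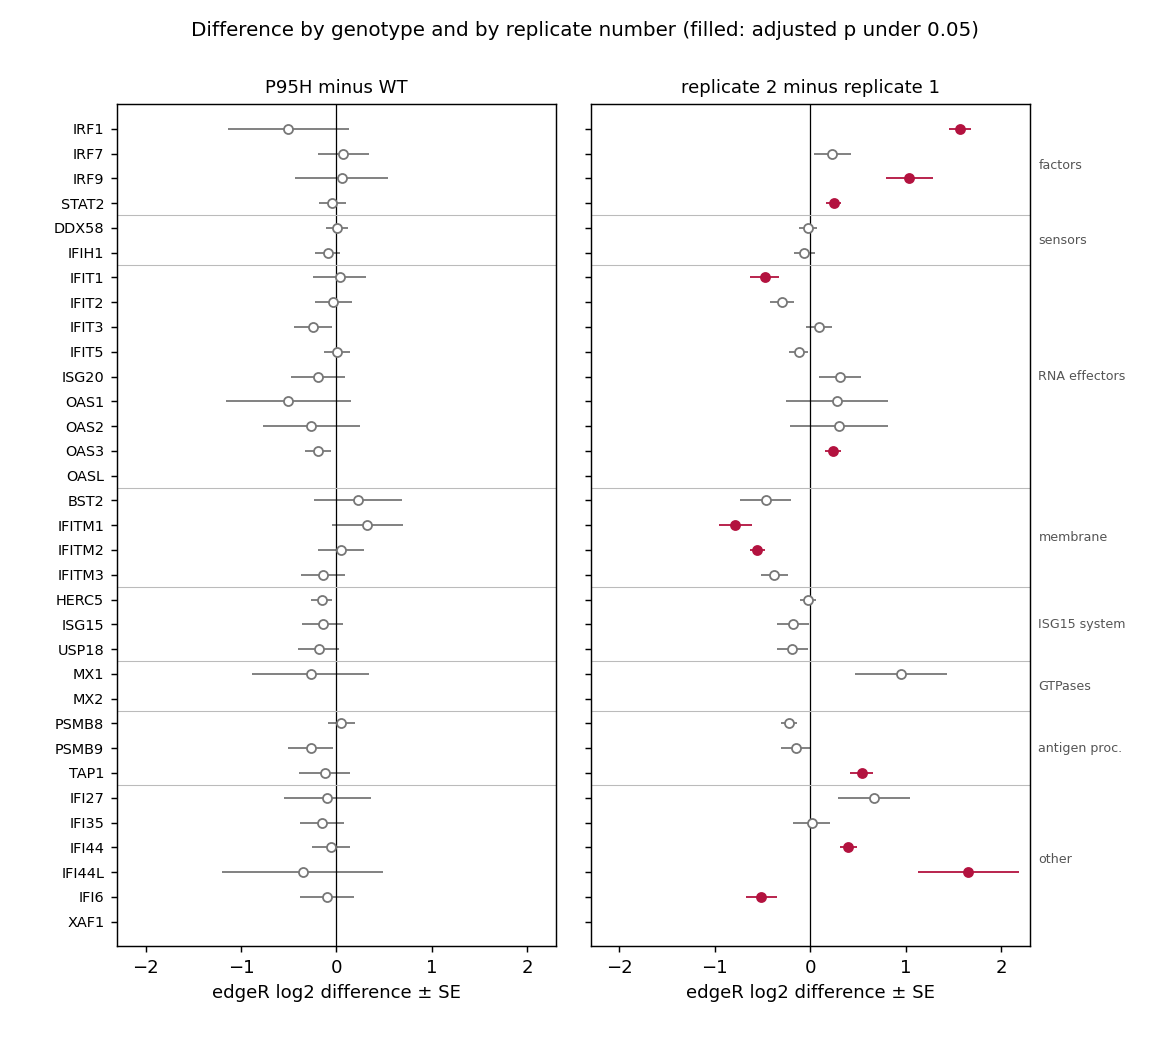
edgeR log2 differences with their SE for the 30 members tested, by genotype on the left (P95H minus WT) and by replicate number on the right (replicate 2 minus replicate 1, with a genotype term). Filled points have an adjusted p under 0.05: 0 on the left and 11 on the right, 7 of them above 0.

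Against the single uninduced library, most members were higher in the doxycycline libraries of either construct, but none passed. Both comparisons share that 1 library as control, and WT differs from it in the construct as well as in doxycycline. edgeR called 0 of 23970 genes (0.0%) in P95H against uninduced, with 818 at an unadjusted p under 0.05, and 0 in WT against uninduced, with 1122. DESeq2 called 7 genes in each, none of them a member. Of the 30 members, 23 were positive in P95H against uninduced, with a median of 0.19 against 0.0016 over all genes, and 27 in WT against uninduced, with a median of 0.24 against -0.014. These tallies moved with the libraries used: without WT replicate 2, 19 members were positive in WT. At an unadjusted p under 0.05 there were 0 members in P95H and 2 in WT, IFIT3 and OAS2. The uninduced library was the lowest of the 5 for 11 of 30 members, where 21.4% of genes were, and the highest for 0, where 25.9% were. These 11 were DDX58, HERC5, IFI35, IFIH1, IFIT2, IFIT3, IFIT5, IFITM3, ISG15, OAS2 and PSMB8. The direction rests on 1 library and has no replicate check.

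Of the IFIT genes 3, and both RNA sensors, were among these 11. IFIT3, which stabilizes IFIT1 on RNA, stood at 10.9 and 14.3 CPM in WT, 11.3 and 9.73 CPM in P95H, and 7.63 CPM uninduced. Its log2 difference from the uninduced library was 0.72 (SE 0.25) in WT and 0.46 (SE 0.25) in P95H, with edgeR adjusted p of 0.896 and 0.972. IFIT2, another RNA-binding family member, stood at 12.2 and 10.0 CPM in WT, 11.9 and 9.62 CPM in P95H, and 7.81 CPM uninduced, with differences of 0.51 (SE 0.25) and 0.46 (SE 0.25). IFIT5 ranged from 21.9 to 25.8 CPM with doxycycline and stood at 20.2 CPM without.

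IFIH1, which encodes the sensor MDA5 of long double-stranded RNA, stood at 18.8 and 17.9 CPM in WT, 17.4 and 16.9 CPM in P95H, and 14.3 CPM uninduced. DDX58, which encodes RIG-I, the sensor of RNA with 5′ phosphates, stood at 27.0 and 26.9 CPM in WT, 27.2 and 26.5 CPM in P95H, and 23.3 CPM uninduced. Both sensors had their 4 doxycycline values close together and the uninduced value below. OAS2 had 12 and 15 counts in WT, 10 and 12 in P95H, and 2 in the uninduced library, too few for a fold. Among members of at least 1 CPM, the lowest fitted differences in P95H belonged to TAP1, at -0.27 (SE 0.32), and ISG20, at -0.12 (SE 0.34). USP18 and IRF7, both at -0.012, and STAT2, at -0.0049, turned positive under DESeq2 or its size factors. IRF1 differed from the uninduced library by 1.01 (SE 0.79) in WT and 0.50 (SE 0.77) in P95H, and IRF9 by 0.57 (SE 0.62) and 0.62 (SE 0.62), each with replicate 2 libraries well above it and replicate 1 libraries near it. In WT the negative values were -0.14 for TAP1, -0.08 for IRF7 and -0.06 for IFITM1.

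**Figure D4:**
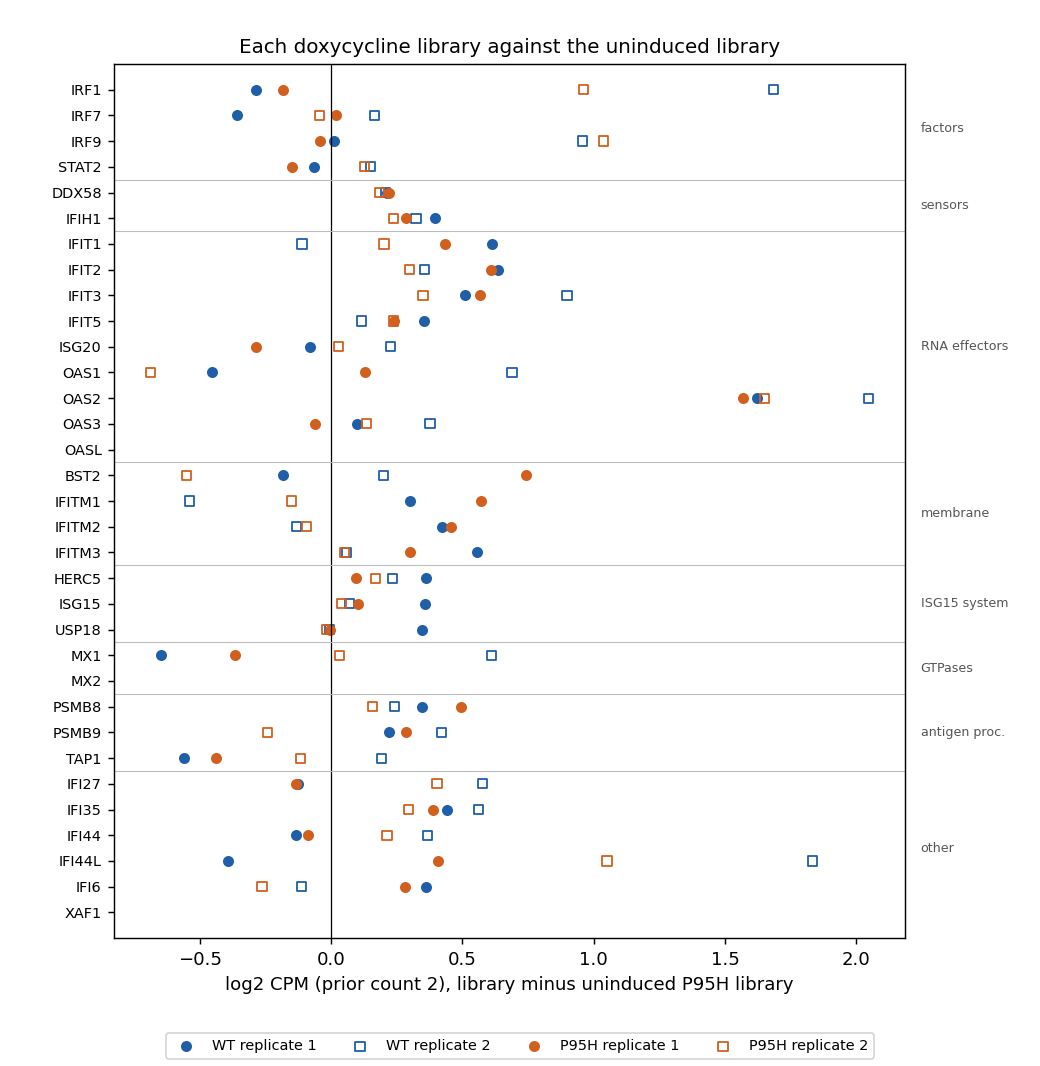
Log2 CPM (prior count 2) of each doxycycline library minus the uninduced P95H library for the 30 members tested, WT in blue, P95H in orange, replicate 1 filled, replicate 2 open. All 4 points lie right of 0 for 11 members, and IRF1 and IRF9 lie near or left of 0 in replicate 1 and far right in replicate 2.

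Because libraries differed by number, the tests were also run with the number as a term. Here too the SE and p-values rest largely on the spread over all genes. P95H against WT then gave 84 calls of 22007 genes (0.382%), with 0 members among them. The uninduced library has no number of its own to share. Its mitochondrial share, erythroid marker sum and TAP1 and TAP2 levels resemble replicate 2, while its IRF1 and IRF9 levels resemble replicate 1. It was therefore placed with each in turn. Placed with replicate 1, P95H was higher for 4 members (IFIT1, IFIT2, IFITM2 and PSMB8; 4.94% of genes were) and lower for IRF1 and TAP1 (10.4%). WT was then higher for 5 (HERC5, IFIT2, IFIT3, IFITM2 and PSMB8; 5.5%) and lower for TAP1 alone (9.92%). Placed with replicate 2, P95H was higher for IRF1 alone (0.897%) and lower for 0 members (2.72%), and WT was higher for 3 (IFIT3, IRF1 and OAS3; 1.99%) and lower for 0 (3.91%). IFIT3 in WT passed under both placings, at 0.67 (SE 0.18, edgeR adjusted p 0.00274) and 0.76 (SE 0.18, edgeR adjusted p 0.000931). IRF1 in P95H reversed with the placing, from -0.40 (SE 0.13, edgeR adjusted p 0.0149) to 1.17 (SE 0.13, edgeR adjusted p 6.06e-16), so no direction is given for it. IFITM2, at 0.46 in P95H with the first placing, was -0.10 with the second.

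The rest of the pathway was read from a list of 127 genes, of which 125 were matched and 95 were tested in P95H against WT. Interferon genes themselves were nearly silent: 17 of 21 had 0 counts in all 5 libraries, IFNL1 had at most 3 counts, and IFNL2 and IFNL3 had 1 count each. IFNK, an interferon best known from keratinocytes, was the exception, at 51 and 24 counts in WT, 61 and 55 in P95H, and 66 in the uninduced library. Overlap with other genes was examined for the members only, so reads of a gene overlapping IFNK could be among these counts. Receptors were present, with IFNAR1 at 103 to 128.5 CPM and IFNGR1 at 37.1 to 47.1 CPM over the 5 libraries. Of the kinases and STATs, JAK1 ranged from 350 to 389 CPM and STAT3 from 430 to 512 CPM. Among negative regulators, TRIM27 lay at 119 to 130 CPM and PIAS1 at 113.5 to 125 CPM. The adaptor MAVS lay at 106 to 130 CPM, TRIM25, the RIG-I ubiquitin ligase, at 86.1 to 94.7 CPM, and TBK1 at 77.0 to 97 CPM, with TRAF3 at 52.8 to 59.8 CPM. ADAR, the RNA-editing enzyme, lay at 428 to 538 CPM, EIF2AK2, the kinase PKR, at 180 to 227 CPM, B2M at 411 to 479 CPM and TAPBP at 87.4 to 128 CPM.

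By genotype 0 of the 95 pathway genes were called by edgeR on group, with a median of -0.07 and 24 positive. With the number as a term 1 was, TMEM173, which encodes the DNA-pathway adaptor STING, at 0.39 (edgeR adjusted p 0.0232). It stood at 53.9 and 36.7 CPM in WT, 64.4 and 51.9 CPM in P95H, and 67.5 CPM in the uninduced library, so P95H with doxycycline was not above the uninduced P95H library. In P95H and WT against uninduced, 0 of 96 pathway genes were called in either comparison, with medians of -0.0075 and 0.06.

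By replicate number, edgeR called 22 of the 95 pathway genes higher in replicate 2 and 5 lower, where 10.3% and 8.87% of all genes were. RSAD2, the antiviral enzyme viperin, stood at 37.6 and 107 CPM in WT, 38.8 and 62.9 CPM in P95H, and 41.8 CPM uninduced, the same order of libraries as IRF1 (log2 difference 1.11, SE 0.11, edgeR adjusted p 4.18e-10; DESeq2 0.0576). TLR3, the endosomal sensor of double-stranded RNA, stood at 0.31 and 2.78 CPM in WT, 0.28 and 1.13 CPM in P95H, and 0.56 CPM uninduced. TAP2, the partner of TAP1, stood at 27.5 and 50.5 CPM in WT, 26.9 and 41.8 CPM in P95H, and 44.2 CPM uninduced, again like its partner. PTPN6, the phosphatase SHP-1, ran the other way, at 53.4 and 27.6 CPM in WT, 59.9 and 38.1 CPM in P95H, and 43.1 CPM uninduced.

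SRSF2 binding, as the authors' deposited table gives it, gave no window in the members. That table lists 8100 distinct windows that passed an adjusted p of 0.05 and a 2-fold change between P95H and WT, 1803 higher and 6297 lower in P95H, in 2439 genes. None of the 33 members was named by a window or overlapped one on either strand. Among the 22007 genes tested in RNA-seq 9.81% had a window, and among the 9271 genes with a mean of at least 10 CPM 18.2% did, where 13 members stood with 0. Windows that were bound without differing are outside that table, so it does not say that SRSF2 leaves these RNAs unbound.

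Windows did fall in 17 of the 95 tested pathway genes (17.9%), with 9 genes higher and 8 lower in P95H by the authors' deposited table. The same split by gene was not computed for all genes. Counted by window, the authors' deposited table holds 1803 higher and 6297 lower. For IFNAR1, the receptor chain of type I interferon, the authors' deposited table gives log2 changes of 3.33 and 4.59 at 2 overlapping windows, the first at chr21:33357563-33357583, with mean CPM of 0.13 in WT and 2.04 in P95H. For JAK1 the authors' deposited table gives -2.68 (chr1:64864924-64864944), with mean CPM of 2.19 in WT and 0.28 in P95H. For TRIM22, an antiviral ubiquitin ligase, the authors' deposited table gives -3.42, with mean CPM of 1.82 in WT and 0.12 in P95H. For ADAR the authors' deposited table gives 6.74 and 7.89 at 2 windows, with a WT mean listed at 0. The authors' standard errors are wide, at 1.87 CPM around the 2.04 CPM of IFNAR1 in P95H and 1.67 CPM around the 2.19 CPM of JAK1 in WT. For TRIM22 in WT the error is 1.4 CPM around 1.82 CPM. For the 2 windows of ADAR in P95H it is 0.95 CPM around 0.99 CPM and 2.38 CPM around 2.59 CPM. RNA levels of these 4 genes were not called in P95H against WT, with edgeR log2 differences of -0.05 for IFNAR1, -0.09 for JAK1, -0.20 for TRIM22 and -0.13 for ADAR.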

How the data were processed

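The deposited RNA-seq table holds whole-number counts by Ensembl gene for each library. The HITS-CLIP table holds the authors' deposited log2 change, p-value adjusted as FDR, and mean CPM with its standard error per window. STAR 2.5.3a, TopHat2 2.0.14, edgeR and GRCh38.p3 are named per the submitters' processing notes, without roles.

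In R 4.3.3 the comparisons were fitted with edgeR 4.0.16 (filterByExpr, TMM, quasi-likelihood test, two-sided, Benjamini-Hochberg over all genes tested, threshold 0.05), with DESeq2 1.42.0 as an alternative. P95H against WT used 4 libraries. Comparisons with the uninduced library used 5, so WT and P95H alone supply the spread. TMM factors enter every CPM from the count table, and 2 was the prior count for log2 CPM. The fitting code was tested on simulated data. Motifs, windows and figures used Python 3.11.15, pandas 2.3.3 and matplotlib 3.10.9.

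Members and lists were chosen with earlier results of these data known. Members named with every library's value are those called in any fit of the 3 comparisons, the 5 largest differences each way (mean of at least 1 CPM, same sign within both numbers for P95H against WT) and the 6 with most reads. Pathway genes named are those called in P95H against WT and the 2 with most reads per class. IFI44, IFI44L, IFI6, IFITM3, OAS2, the remaining IFIT, sensor and ISG15 genes, TRIM22 and the pathway genes named by replicate number were named after their values were seen.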

Additional observations from a re-analysis of the deposited data

How the results depend on the processing

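Alternatives were DESeq2, DESeq2 size factors in edgeR, no filter or a stricter filter on low counts, each replicated library left out, and a replicate block (the number as a term). Same-numbered WT and P95H libraries deviated together, with correlations of 0.535 over all genes tested and 0.579 over the members, but with 2 pairs and no label for a shared batch the numbers are not taken to pair them. For P95H against WT, no setting called a member, and the members' median ran from -0.16 to -0.043 with 1 library left out. The count of genes called was 15 without the filter and 84 under the replicate block. Leaving out 1 library moved IFITM1 from -0.090 to 0.81, IFITM2 from -0.26 to 0.35, USP18 from -0.36 to 0.00082 and IRF1 from -1.20 to 0.79, changing the sign of each.

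Against the uninduced library, the replicate block moved the counts most: 3685 genes and 6 members with that library placed with number 1, and 866 genes and 1 member with number 2, for P95H; 3697 genes and 6 members, and 1413 genes and 3 members, for WT. Without the filter 92 genes were called for P95H, and 128 genes and 1 member, IRF1, for WT, while DESeq2 called 7 genes in each. Leaving out 1 library gave 0 to 2 genes for WT, the 2 without WT replicate 1. The members' median for WT was 0.28 with DESeq2, 0.27 with its size factors, 0.27 with the block at number 1, and 0.24 to 0.27 with 1 library left out. It stayed positive in every setting for both constructs, but the number of positive members, 23 for P95H and 27 for WT, was 18 and 21 with the block at number 1, 20 and 26 with it at number 2, and 19 for WT without WT replicate 2.

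The signs that turned are listed here for the members named in these comparisons alone, and those of other members also turned. The block at number 1 turned them in P95H for IRF1 (-0.40), IRF9 (-0.0025) and USP18 (0.083), and in WT for IRF1 (-0.056), IRF9 (-0.027) and IFITM1 (0.28). The block at number 2 turned them in P95H for IFITM2 (-0.10), ISG20 (0.025), IRF7 (0.10) and STAT2 (0.11), and in WT for IFITM2 (-0.13), TAP1 (0.092) and IRF7 (0.026). In P95H, USP18, IRF7 and STAT2 became 0.011, 0.011 and 0.019 with DESeq2 or its size factors, and 0.013, 0.013 and 0.020 with the stricter filter. With 1 library left out, P95H values ran from -0.076 to 0.45 for IFITM2, -0.19 to 0.98 for IRF1, -0.044 to 1.08 for IRF9, -0.29 to 0.046 for ISG20, -0.012 to 0.00058 for USP18, -0.026 to 0.018 for IRF7 and -0.15 to 0.15 for STAT2. WT values ran from -0.13 to 0.43 for IFITM2, -0.28 to 1.69 for IRF1, -0.55 to 0.19 for TAP1, -0.36 to 0.17 for IRF7 and -0.54 to 0.31 for IFITM1. A comparison arm left with 1 library is assumed to vary like the other groups. The causes of these changes were not tested.

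By replicate number DESeq2 called 1455 genes and 5 members, and edgeR without a genotype term 2867 genes and 6 members. With 1 library left out, which needs a fit without that term, 2016 to 3249 genes and 3 to 9 members were called: 2181 and 6 without P95H replicate 1, 2306 and 7 without WT replicate 1, and 2016 and 3 without WT replicate 2. HITS-CLIP windows of the members stayed at 0 at an adjusted p of 0.01 and after merging overlapping windows. The pathway genes' 26 windows became 20 and 19. Members under 1 CPM are limited by depth.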
